A study of Homo sapiens with 18 samples.

Results

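The 10 genes described here encode surface ligands that natural killer cells, T cells and macrophages read on a target cell. They were taken by symbol: MICA, MICB, ULBP1, ULBP2 and ULBP3, which bind the activating receptor NKG2D, PVR and NECTIN2, which bind DNAM-1 and the inhibitory receptors TIGIT or PVRIG, CD274 and PDCD1LG2, the ligands PD-L1 and PD-L2 of PD-1, and CD47, the ligand of SIRPA on macrophages. Each of the 10 symbols had its own row among the 40916 symbols listed for every library, and 10180 of those symbols had no count in any library.

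The study measured poly(A) RNA in MCF10A, a non-tumorigenic human mammary epithelial line that here carries a histone H2B-GFP label, in an unlabelled p53-null HCT116 colorectal carcinoma line, and in mixtures of both lines set up at 50% each. Each culture type was kept without irradiation (NIR) or exposed to 10 Gy (IR), with 3 biological replicates in each of the 6 groups and 18 libraries in all. MCF10A grew in F12:DMEM with horse serum, EGF, hydrocortisone, cholera toxin and insulin, and HCT116 in McCoy's 5A with fetal bovine serum, so in the monocultures line and medium cannot be told apart. Both media held penicillin and streptomycin, and the medium of the mixtures is not given in the sources used here. The sample titles give day 2 and the series text gives 72 hours after irradiation for the harvest. The labels name no immune cells in any group.

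NKG2D ligands are kept low on most healthy epithelia and are induced by cell stress, DNA damage signalling and proliferation, and an NK cell kills when activating signals outweigh inhibitory ones. The ULBP proteins and MICA and MICB are distant relatives of MHC class I. PD-L1 and PD-L2 restrain T cells through PD-1, PD-L1 is a textbook interferon-gamma target through IRF1, and CD47 is known as the signal that holds back phagocytosis. Surface protein, shedding and secretion of these ligands were not measured.

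The genes lie in a few clusters. In the RefSeq annotation of GRCh38.p14, MICA (chr6:31400711-31415315) and MICB (chr6:31494918-31511124) are neighbours in the MHC region, and ULBP2 (chr6:149942014-149949235), ULBP1 (chr6:149963943-149973715) and ULBP3 (chr6:150061053-150069121) are neighbours on the long arm of the same chromosome. CD274 (chr9:5450542-5470554) and PDCD1LG2 (chr9:5510531-5571282) are also close to each other, as are PVR (chr19:44643910-44666162) and NECTIN2 (chr19:44846297-44889223). CD47 (chr3:108043091-108091031) stands alone. Reads shared by MICA and MICB, or by the ULBP genes and their RAET1 relatives, could be split or dropped by the counting, and the sources used here do not say how it treated them.

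The sequence upstream of 4 genes is shown because their RNA behaved differently: the 3 neighbouring ULBP genes diverged between the lines and after irradiation, and CD274 is the gene of the set with the best known interferon response. Each window runs from 250 to 51 bases before the RefSeq start, 5′ to 3′ along the gene's strand. Capitals mark matches, on either strand, to the GC box GGGCGG, the CCAAT box, the interferon-response pattern GAAANNGAA and the pattern TTCNNNGAA.
ULBP1, plus strand, chr6:149963693-149963892: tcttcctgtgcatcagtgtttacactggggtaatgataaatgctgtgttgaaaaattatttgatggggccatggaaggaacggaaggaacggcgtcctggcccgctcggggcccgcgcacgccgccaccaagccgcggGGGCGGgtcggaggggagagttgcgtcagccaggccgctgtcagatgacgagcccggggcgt
ULBP2, plus strand, chr6:149941764-149941963: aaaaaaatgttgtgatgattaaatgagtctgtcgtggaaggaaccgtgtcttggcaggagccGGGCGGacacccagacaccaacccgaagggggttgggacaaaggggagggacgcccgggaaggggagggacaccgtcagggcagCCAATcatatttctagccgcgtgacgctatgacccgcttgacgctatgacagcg
ULBP3, minus strand, chr6:150069172-150069371: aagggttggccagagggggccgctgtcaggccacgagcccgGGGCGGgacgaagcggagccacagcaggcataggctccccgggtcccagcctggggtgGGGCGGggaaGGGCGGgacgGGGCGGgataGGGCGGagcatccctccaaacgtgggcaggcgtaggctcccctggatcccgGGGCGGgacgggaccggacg
CD274, plus strand, chr9:5450292-5450491: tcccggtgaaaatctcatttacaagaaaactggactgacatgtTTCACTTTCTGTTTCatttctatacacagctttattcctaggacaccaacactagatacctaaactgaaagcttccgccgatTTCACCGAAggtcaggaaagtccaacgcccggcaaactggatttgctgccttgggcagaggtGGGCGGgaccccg

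Windows of 250 bases before a transcript start were at hand for 9 of the 10 genes, all but PDCD1LG2. For MICA (chr6:31403345-31403594) and MICB (chr6:31497895-31498144) the start used by the RefSeq promoter table is a transcript start inside the gene range given above, and not the first base of that range. ULBP3 and CD47 each held 6 matches to GGGCGG, and GGGCGG was found in 8 of the 9 windows against 42.6% of 35116 promoters of the same length. The GC content of the 9 windows ran from 54.8% for CD274 to 79.6% for CD47, against a median of 58.0% over all promoters. The part of GC content in the GGGCGG matches was not tested. CD274 alone held GAAANNGAA, as 2 overlapping matches on the minus strand, and alone held TTCNNNGAA, against 6.9% and 6.6% of all promoters. MICA and MICB both held GAANNTTC, the inverted repeat of heat shock elements, which 5.8% of all promoters hold. CCAAT was found in the windows of MICA, MICB and ULBP2, against 32.0% of all promoters. PVR held none of the patterns searched, which also included the AP-1 pattern TGANTCA (6.6% of all promoters) and TATAAA (10.7%), neither of which was found in any of the 9. A match describes the letters of the window and is not a measured binding site.

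Library totals ranged from 25737818 to 40839835 counts, and levels are given as CPM, the count times 1e+06 over that total. Two-sided tests were made with edgeR's quasi-likelihood test on the counts, with a gene called at a Benjamini-Hochberg adjusted p-value under 0.05 over all genes tested. The lines differed in summed markers: 10 basal mammary genes summed to between 11855 and 19139 CPM in the MCF10A monocultures and to between 260 and 368 CPM in those of HCT116. The 10 intestinal genes summed to at most 0.882 CPM in MCF10A and to at least 866.8 CPM in HCT116. Most of the HCT116 sum was KRT19, at 886 CPM in HCT116 NIR, beside MYH14 at 132 and CDX2 at 10.0 CPM. There KRT20 was at 1.13, CDH17 at 0.612, GPA33 at 0.530, VIL1 at 0.177, LGR5 at 0.172, LGALS4 at 0.0676 and CDX1 at 0 CPM. Of the basal genes, CDH3 was at 147 CPM in MCF10A NIR and at 196 CPM in HCT116 NIR. The 15 immune markers summed to 5.10 to 11.0 CPM in all 18 libraries. By group mean the highest was CD14 in MCF10A (3.65 CPM in NIR) and CD226 in HCT116 and the mixtures (3.83 CPM in mixed IR). The leukocyte gene PTPRC was at 0 to 0.217 CPM in each library. The sum of the 15 was higher after irradiation in each culture type. For MCF10A it went from 5.10 to 5.50 CPM up to 7.14 to 8.39 CPM. For HCT116 it went from 5.31 to 6.91 CPM up to 8.50 to 10.3 CPM. The part of these markers in the results was not tested. The mitochondrial share of counts was also higher after irradiation in every culture type, at 5.10 to 5.32% and then 6.06 to 6.35% for MCF10A and at 8.42 to 8.75% and then 11.5 to 12.3% for HCT116. CDKN1A, the p21 gene induced by DNA damage, was called higher after irradiation in each culture type.

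**Figure D1:**
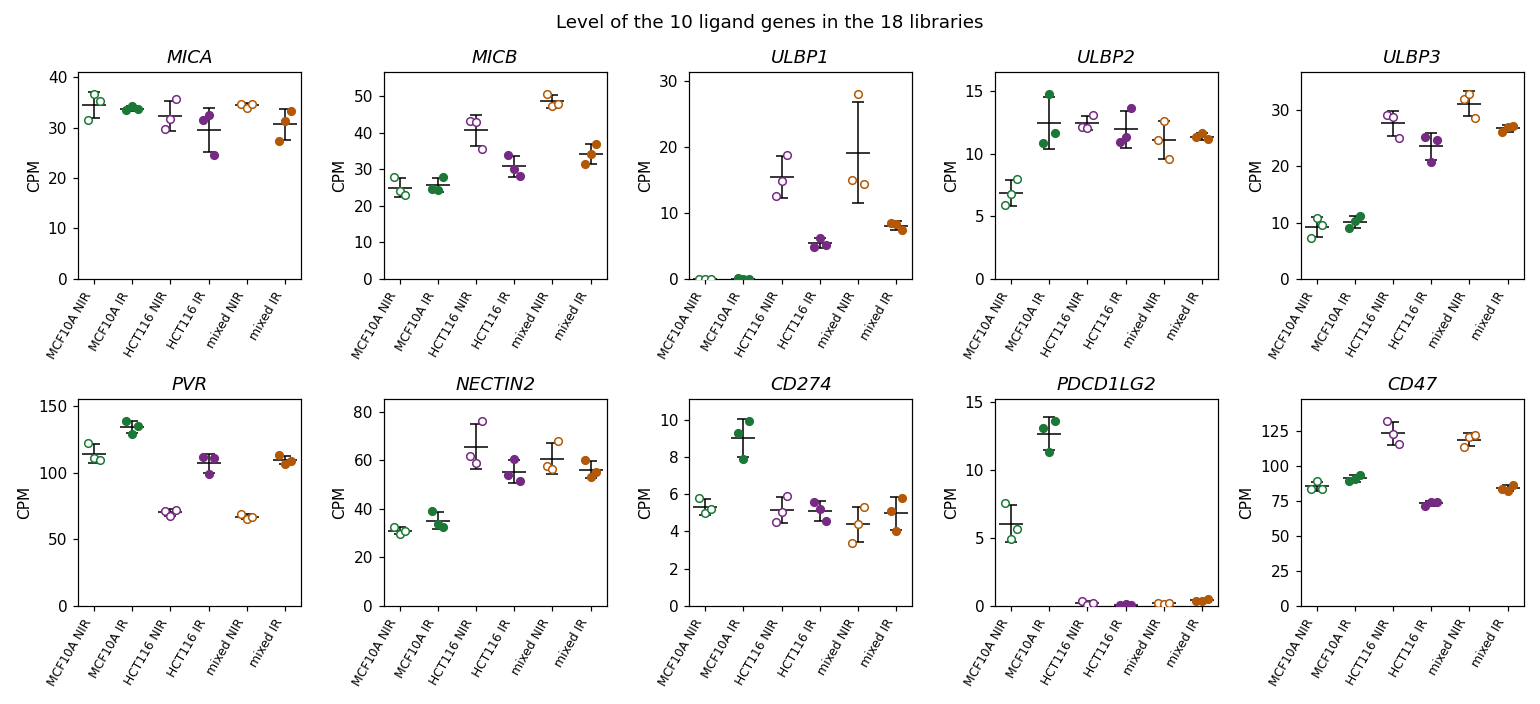
Level of each of the 10 genes in CPM (linear axis from 0) in the 18 libraries, by culture and treatment; points are libraries, the long bar is the mean and the whiskers are 1 SD over 3 libraries. ULBP1 is at or next to 0 in all MCF10A libraries, PDCD1LG2 is high only in MCF10A, and PVR is the 1 gene that is higher after irradiation in all 3 culture types without overlap.

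Without irradiation, the 2 lines displayed different sets of ligand RNAs. MICB, ULBP1, ULBP2, ULBP3, NECTIN2 and CD47 were called higher in HCT116, and PVR, PDCD1LG2 and MICA were called higher in MCF10A, MICA with a call that depended on the scaling. Of the 10 genes, 6 were called higher in HCT116, against 38.7% of the 16568 genes tested, and 3 were called lower, against 36.1%. Together 9 of 10 were called, against 74.8% of all genes, so most genes tested differed between these lines. In bulk RNA, fewer cells with a transcript and less of it per cell cannot be told apart.

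ULBP1 was the clearest case of presence in 1 line. It had no count in any of the 3 MCF10A NIR libraries and stood at 12.6, 14.9 and 18.9 CPM in the 3 of HCT116 NIR. With a floor of 3 counts over the MCF10A group, ULBP1 was at least 508-fold higher in HCT116, or at least 254-fold with all counts halved to allow for mates counted one by one. The floor covers counting error only. ULBP3, a GPI-anchored NKG2D ligand like ULBP1, was at 7.23, 10.8 and 9.50 CPM in MCF10A and at 29.2, 28.8 and 25.1 CPM in HCT116. Every HCT116 library lay above every MCF10A library, and the log2 fold change was 1.39 (SE 0.13, adjusted p = 2.7e-08).

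PDCD1LG2 showed the opposite pattern. The PD-L2 gene was at 7.56, 4.96 and 5.67 CPM in MCF10A NIR and at 0.347, 0.0932 and 0.253 CPM in HCT116 NIR, where those levels are 3 to 12 counts a library. The 2 lines did not overlap, with a log2 fold change of -4.88 (SE 0.36, adjusted p = 7.8e-10). CD274, its neighbour, was at 5.79, 4.99 and 5.19 CPM in MCF10A and 4.51, 5.07 and 5.90 CPM in HCT116. The libraries of both lines overlapped for CD274 and the difference of -0.25 (SE 0.18, 95% interval -0.63 to 0.14, adjusted p = 0.235) was not called.

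Among the DNAM-1 ligands, PVR was higher in MCF10A and NECTIN2 higher in HCT116. PVR was at 122, 111 and 109.7 CPM in MCF10A and at 71.4, 67.5 and 72.0 CPM in HCT116, a log2 fold change of -0.90 (SE 0.06, adjusted p = 2.9e-10). NECTIN2 was at 32.4, 29.8 and 30.7 CPM in MCF10A and at 61.9, 58.8 and 76.0 CPM in HCT116, a log2 fold change of 0.88 (SE 0.09, adjusted p = 1.0e-07). Neither pair of groups overlapped. MICB (0.51, SE 0.09), ULBP2 (0.66, SE 0.14) and CD47 (0.33, SE 0.06) were also higher in HCT116 without overlap. MICA differed least among the genes called: at 31.6, 36.7 and 35.3 CPM in MCF10A and 29.8, 31.7 and 35.7 CPM in HCT116 its libraries overlapped, with a log2 fold change of -0.29 (SE 0.09, adjusted p = 0.00849). MICA was not called with upper-quartile scaling (-0.09) or library totals alone (-0.09), which moved the median of all genes from 0.05 to 0.25, and CD47 was then 0.53 in both. Relative to that median MICA was at -0.34 under all 3 scalings and CD47 at 0.28.

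Other ligands of NK cells were mostly lower in HCT116 than in MCF10A. Of 10 genes tested, 6 were lower, against 36.1% of all genes, and 3 higher, against 38.7%. Their median log2 fold change was -2.33 against 0.05 over all genes. ICAM1, the adhesion ligand of LFA-1, was at 21.6 ± 1.30 CPM in MCF10A and 0.949 ± 0.0799 CPM in HCT116 (SD, n = 3). NCR3LG1, which encodes the NKp30 ligand B7-H6, was at 41.5 ± 6.16 and 8.02 ± 0.802 CPM, and the NKG2D ligand RAET1E at 20.1 ± 3.17 and 3.89 ± 1.55 CPM. CLEC2B, the NKp80 ligand, had no count in the HCT116 NIR libraries and 8.74 ± 0.949 CPM in those of MCF10A. Among checkpoint genes, CD40 was higher in HCT116 (log2 fold change 3.70), and NT5E, which encodes the adenosine-producing enzyme CD73, was lower (-1.94). THBS1, the secreted CD47 ligand thrombospondin 1, was at 1336 ± 29.2 CPM in MCF10A and 25.8 ± 2.43 CPM in HCT116.

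The interferon-gamma receptor genes lay lower in HCT116, IFNGR1 by a log2 fold change of -1.45 and IFNGR2 by -1.72, while IRF1 (-0.15, adjusted p = 0.326) was not called. CGAS, the cytosolic DNA sensor, was at 28.6 ± 1.26 CPM in MCF10A and 0.0622 ± 0.108 CPM in HCT116. Of the 12 regulators of PD-L1 tested, 4 were higher and 6 lower in HCT116, against 38.7% and 36.1% of all genes. CMTM6, which protects PD-L1 from degradation, was higher by 0.28.

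Divided by exon length, PVR was the most abundant of the 10 transcripts in MCF10A, at 32.5 ± 1.96 CPM per kilobase without irradiation, followed by CD47 at 16.2 ± 0.621 and MICA at 14.5 ± 1.10. MICB, ULBP3 and NECTIN2 followed between 8.76 and 9.62 CPM per kilobase, with overlapping neighbours. ULBP2 (5.10), PDCD1LG2 (2.56) and CD274 (1.44) came next, and ULBP1 was last at 0. In HCT116 NIR the order began with ULBP3 at 28.0 ± 2.28 CPM per kilobase and CD47 at 23.4 ± 1.56, then PVR at 20.0 ± 0.704 and NECTIN2 at 18.6 ± 2.59, whose libraries overlapped. MICB and MICA came next with overlap between them, then ULBP2 (9.22), ULBP1 (4.92) and CD274 (1.40), with PDCD1LG2 last at 0.0978. The lengths are exon unions of the GENCODE 29 basic set, and the annotation used by the authors is not given in the sources used here, so the order rests on that choice.

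The first irradiation comparison asked how the ligands responded in MCF10A. Of 9 genes tested, 4 rose and none fell: PDCD1LG2, ULBP2, CD274 and PVR. Over all 15154 genes tested, 26.2% were called higher and 29.2% lower, 55.4% together, so a call as such was common. The median log2 fold change of the 9 genes was 0.16 against 0.003 over all genes, and ULBP1 was too low to test.

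The PD-1 ligands rose together in MCF10A. PDCD1LG2 went from 7.56, 4.96 and 5.67 CPM in the NIR libraries to 13.1, 11.3 and 13.6 CPM in the IR libraries (log2 fold change 1.04, SE 0.14, adjusted p = 5.0e-07). CD274 went from 5.79, 4.99 and 5.19 CPM to 9.26, 7.88 and 9.91 CPM (log2 fold change 0.74, SE 0.15, adjusted p = 9.2e-05). For both genes every irradiated library lay above every non-irradiated one. Of the 12 listed regulators of PD-L1, 6 rose, against 26.2% of all genes, and 2 fell, against 29.2%, with a median of 0.14. CMTM6 (0.22) was among those that rose. In the list of sheddases ADAM10 (0.20), a protease that sheds surface ligands, also rose. IRF1, which drives CD274 transcription, was at 11.9 and 14.5 CPM and missed the threshold (0.26, adjusted p = 0.0713).

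Of the 4 NKG2D ligands of the set that could be tested in MCF10A, ULBP2 alone rose. It was at 5.91, 6.76 and 7.96 CPM without irradiation and at 10.8, 14.8 and 11.7 CPM after it, with a log2 fold change of 0.83 (SE 0.14, adjusted p = 1.3e-05). The groups did not overlap. The neighbouring ULBP3 was at 9.18 ± 1.81 CPM before and 10.2 ± 1.05 CPM after (0.13, 95% interval -0.16 to 0.42, adjusted p = 0.469), and ULBP1 had 2, 0 and 1 counts in the 3 irradiated libraries. MICA (-0.05, 95% interval -0.21 to 0.10) and MICB (0.02, 95% interval -0.17 to 0.20) were not called, and their libraries overlapped.

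PVR, the poliovirus receptor, rose by a small step in MCF10A, from 122, 111 and 109.7 CPM to 139, 129 and 135 CPM (log2 fold change 0.21, SE 0.05, adjusted p = 0.00064). No irradiated library overlapped the NIR range. NECTIN2 (0.16, SE 0.08, adjusted p = 0.0953) and CD47 (0.07, SE 0.05, adjusted p = 0.289) were not called, and both were called with upper-quartile scaling (0.24 and 0.15), which also moved the share of higher calls over all genes from 47.4% to 57.5%. NECTIN1, a nectin of the adherens junction, stayed uncalled (-0.04), while NECTIN4, a nectin bound by TIGIT, rose from 5.64 ± 0.983 to 13.6 ± 0.949 CPM.

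Beyond the 10 genes, 4 of 9 other NK ligands rose in MCF10A and 1 fell, close to the share of 55.4% called over all genes. RAET1G, an NKG2D ligand outside the set that is named here after its values were seen, was among those that rose (2.37 and 4.22 CPM, log2 fold change 0.81, SE 0.22, adjusted p = 0.00292). ICAM1 rose from 21.6 ± 1.30 to 49.9 ± 1.88 CPM (log2 fold change 1.19). All 3 of HLA-E, HLA-F and B2M rose, against 26.2% of all genes called higher, and the remaining gene of that list was not tested. HLA-E, which binds the inhibitory receptor NKG2A, rose by 0.25. CEACAM1, a homophilic inhibitory ligand, rose by 1.30, and LRP1, the phagocytic receptor for calreticulin, by 1.41. ENTPD1, which encodes the ATP-degrading enzyme CD39, fell by 1.10 on the log2 scale. Among the 18 other B7, butyrophilin and checkpoint ligands tested, 6 rose and 3 fell, which is also near that share, and CD276, the B7-H3 gene, was not called (0.08).

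**Figure D2:**
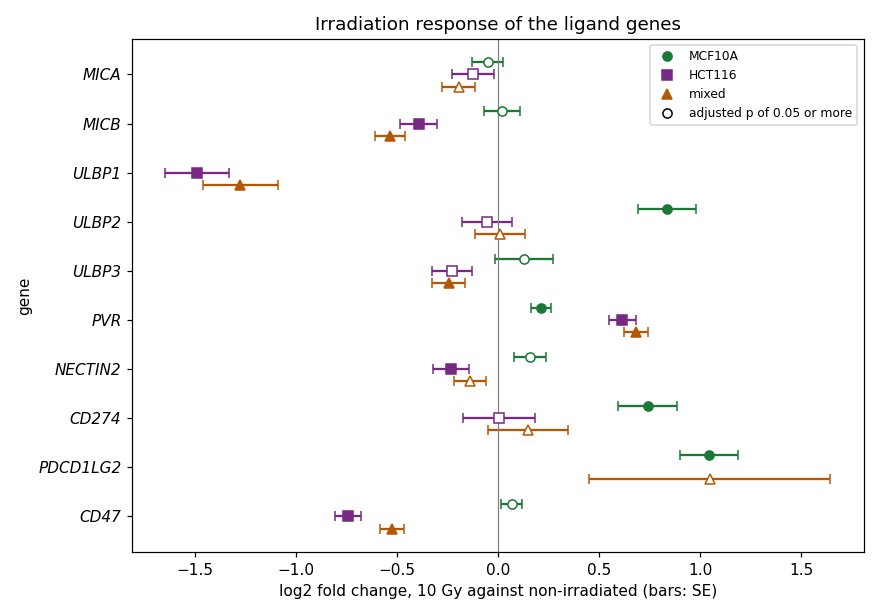
Log2 fold change after 10 Gy for each ligand gene in MCF10A (circles), HCT116 (squares) and the mixtures (triangles), with SE as bars; filled symbols have an adjusted p-value under 0.05. ULBP1 in MCF10A and PDCD1LG2 in HCT116 were too low to be tested and have no symbol. PVR lies right of 0 in all 3 culture types, and MICB, ULBP1 and CD47 lie left of 0 in HCT116 and the mixtures.

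In HCT116, ULBP1, CD47 and MICB fell after 10 Gy, NECTIN2 fell with a call that rested on single libraries, and PVR rose as it did in MCF10A. Of 9 genes tested, 4 fell, against 27.2% of 16857 genes, and 1 rose, against 25.3%, which together is 5 of 9 against 52.5%. The median of the 9 was -0.23 against 0.007 over all genes. PDCD1LG2, with 11 counts over the 3 irradiated libraries, was too low to test.

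ULBP1 fell most. It was at 12.6, 14.9 and 18.9 CPM without irradiation and at 4.90, 6.27 and 5.13 CPM after it, so that every irradiated library lay below every control. The log2 fold change was -1.49 (SE 0.16, adjusted p = 2.9e-08). MICB went from 43.2, 43.0 and 35.6 CPM to 33.9, 30.1 and 28.1 CPM (-0.39, SE 0.09, adjusted p = 0.00102), also without overlap. The other NKG2D ligands were not called. MICA was at 29.8, 31.7 and 35.7 CPM and then 31.5, 32.4 and 24.5 CPM, ULBP2 at 12.1, 12.1 and 13.1 CPM and then 10.9, 11.3 and 13.6 CPM, and ULBP3 at 29.2, 28.8 and 25.1 CPM and then 25.2, 20.8 and 24.7 CPM. All 3 sets of libraries overlapped, with log2 fold changes of -0.12 for MICA (95% interval -0.34 to 0.09), -0.05 for ULBP2 (-0.31 to 0.20) and -0.23 for ULBP3 (-0.43 to -0.02, adjusted p = 0.0556).

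CD47 fell in HCT116 from 132, 123 and 116 CPM to 71.7, 74.8 and 74.1 CPM. The irradiated libraries all lay below the controls, with a log2 fold change of -0.74 (SE 0.06, adjusted p = 1.1e-09). Among the other genes of the CD47 axis, 2 of 5 rose and 1 fell, against 25.3% and 27.2% of all genes. LRP1 rose by 0.41 on the log2 scale, less than in MCF10A (log2 difference -1.07, adjusted p = 3.4e-09).

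PVR rose in HCT116 from 71.4, 67.5 and 72.0 CPM to 112, 99.0 and 111 CPM, with a log2 fold change of 0.61 (SE 0.07, adjusted p = 4.0e-08) and no overlap. NECTIN2 was at 61.9, 58.8 and 76.0 CPM and then at 53.9, 60.6 and 51.4 CPM. Those libraries overlapped and the call rested on single libraries: the log2 fold change was -0.23 (SE 0.09, adjusted p = 0.0301), and -0.11 (adjusted p = 0.275) without HCT116 NIR replicate 3, and it was also not called without HCT116 IR replicate 1 or replicate 3. CD274 was at 4.51, 5.07 and 5.90 CPM and then 5.61, 5.22 and 4.55 CPM, a log2 fold change of 0.004 (95% interval -0.37 to 0.38).

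Of the PD-L1 regulators, 5 of 12 rose and 2 fell in HCT116, near the 52.5% called over all genes. IRF1 rose from 12.3 to 20.4 CPM (0.75). Other checkpoint ligands rose more than any of the 10 genes: CEACAM1 from 4.81 ± 1.05 to 35.6 ± 4.04 CPM, LGALS9, the galectin-9 gene, from 1.93 ± 0.412 to 6.89 ± 1.15 CPM, VSIR, the VISTA gene, from 9.80 ± 0.820 to 27.9 ± 2.37 CPM, and NECTIN4 from 5.07 ± 0.331 to 16.2 ± 1.68 CPM. In that list of other B7, butyrophilin and checkpoint ligands, 8 of 17 rose and 2 fell, against 25.3% and 27.2% over all genes. CHEK1, a kinase of the damage response upstream of NKG2D ligands, fell by 1.06 on the log2 scale, and of its list 3 of 10 rose and 4 fell. Of HLA-E, HLA-F and B2M, 1 rose and 2 fell, against 25.3% and 27.2% over all genes. HLA-E fell by 0.18 on the log2 scale.

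**Figure D3:**
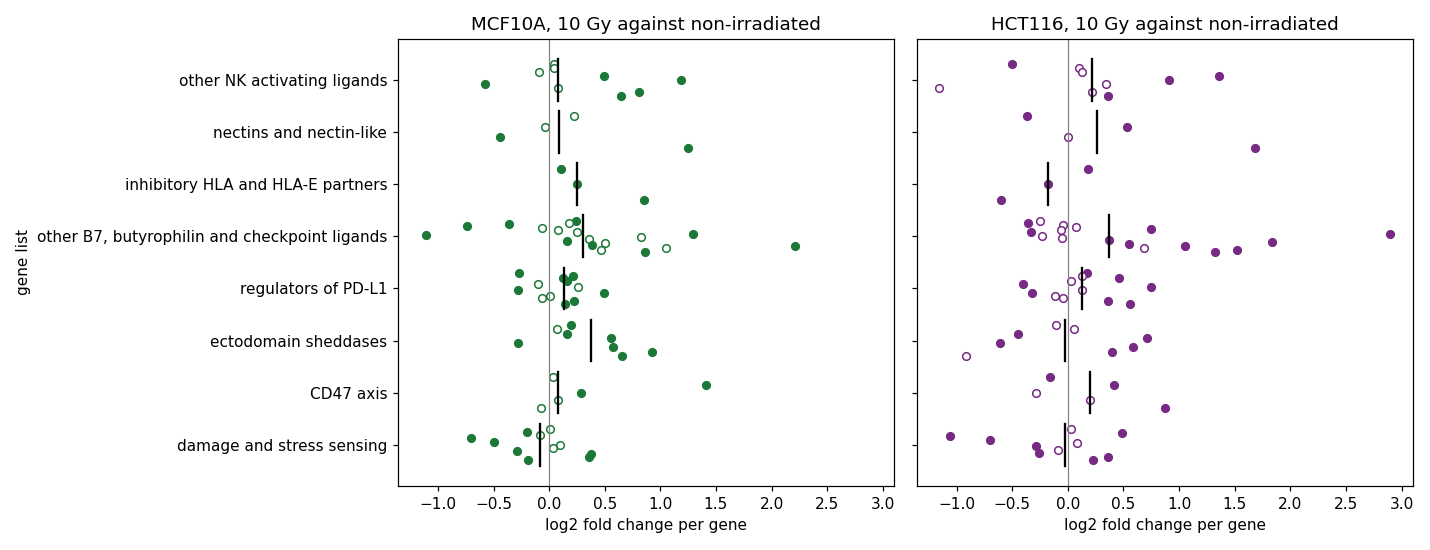
Log2 fold change after 10 Gy for each gene of 8 related lists in MCF10A (left) and HCT116 (right); each point is a gene, filled points have an adjusted p-value under 0.05, and the black bar is the list's median. The HLA list lies above 0 in MCF10A, and for 2 of its 3 genes below 0 in HCT116.

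The difference between the responses was then tested directly over the 12 monoculture libraries. For 7 of 10 genes the fold change after irradiation was lower in the HCT116 cultures than in those of MCF10A, against 21.9% of 18179 genes, and higher for 1, against 15.4%, so 8 of 10 differed against 37.3% of all genes. Those counts and the median of the 10 genes include ULBP1, with 0 to 2 counts in each MCF10A library. They also include PDCD1LG2, with 2 to 12 counts in each HCT116 library. Both genes passed the filter on low counts through the other line, and neither could be tested for irradiation in the line where it was low. The median difference was -0.65 over the 10 genes and -0.11 over all genes tested. That all-gene median moved to between -0.01 and 0.01 when mitochondrial and the 10 most abundant genes were left out, when any 1 of the 3 MCF10A IR libraries or HCT116 IR replicate 2 was left out, and in 1 fit of all 18 libraries. In those fits 51.8% to 53.9% of the genes called had a higher response in HCT116, against 41.3% here, so the balance of calls over all genes turned; with no filter on low counts it was 51.9%.

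CD47 had the smallest p-value, with a difference of -0.89 (SE 0.08, adjusted p = 2.7e-09): it fell in HCT116 and was not called in MCF10A. ULBP2 differed by -0.97 (SE 0.20, adjusted p = 0.00038), with a rise called in MCF10A and a log2 fold change of -0.05 in HCT116. PVR was the 1 gene with a higher response in HCT116, by 0.33 (SE 0.08, adjusted p = 0.00285), from a lower starting level, and after irradiation its levels of 99.0 to 112 CPM still lay below the 129 to 139 CPM of MCF10A. The PD-1 ligands differed by -0.81 for CD274 (SE 0.23, adjusted p = 0.00707) and by -2.16 for PDCD1LG2 (SE 0.59, adjusted p = 0.00506), the latter on 2 to 12 counts in each HCT116 library. MICB differed by -0.49 (SE 0.14, adjusted p = 0.00588) and NECTIN2 by -0.47 (SE 0.13, adjusted p = 0.00539). The fitted difference of ULBP1 (adjusted p = 0.0354) compares a fall in HCT116 with 0 to 2 counts in MCF10A and has no meaning as a size. ULBP3 (-0.43, adjusted p = 0.0636) and MICA (-0.15, 95% interval -0.43 to 0.14) were not called.

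Single libraries decided part of these calls. Without MCF10A IR replicate 3, 5 genes were called, MICB was at -0.32 and no longer called, and the adjusted p of CD274 was 0.0545. The call of NECTIN2 was lost without MCF10A IR replicate 1 (-0.29), that of PDCD1LG2 without HCT116 NIR replicate 1 (-1.71), that of MICB also without HCT116 IR replicate 2, and that of ULBP1 in 5 of the 12 fits that left out a library.

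Of the neighbouring lists, the ectodomain sheddases and their partners had 5 of 8 genes with a lower response in HCT116 and none with a higher one, against 21.9% and 15.4% over all genes, and a median of -0.40 beside the all-gene median of -0.11 that moves as given above. ADAM10 differed by -0.38 and TIMP3, an inhibitor of such proteases, by -1.68. HLA-E (-0.50) and HLA-F (-1.54) were lower too. CEACAM1 (1.52), NCR3LG1 (1.41) and NECTIN1 (0.49) had higher responses in HCT116. NCR3LG1 stood at 41.5 ± 6.16 CPM before and 28.2 ± 0.879 CPM after irradiation of MCF10A, and at 8.02 ± 0.802 CPM before and 15.0 ± 0.743 CPM after irradiation of HCT116.

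In the mixtures, the RNA was nearly all from HCT116. The MCF10A share was estimated from genes of at least 20 CPM in 1 line and under 1 CPM in the other. It was 0.447% ± 0.0528 of the RNA in the NIR mixtures and 1.24% ± 0.0662 in the IR mixtures (SD, n = 3), against the 50% of cells described at the start. The estimate takes no account of low counts in the other line or of levels that change in the mixtures, and the SD does not cover the spread between genes. The values below therefore come mostly from HCT116 RNA. Of 10 genes tested, 4 fell, against 25.4% of 16906 genes, and 1 rose, against 24.0%, and 5 of 10 compares with 49.4% of all genes.

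PVR rose in the mixtures from 69.1, 65.5 and 66.4 CPM to 113, 107 and 109.0 CPM (log2 fold change 0.68, SE 0.06, adjusted p = 6.8e-09). CD47 fell from 114, 121 and 122 CPM to 83.8, 82.2 and 86.6 CPM (-0.53, SE 0.06, adjusted p = 2.6e-07). MICB fell from 50.5, 47.3 and 47.7 CPM to 31.4, 34.0 and 36.9 CPM (-0.53, SE 0.07, adjusted p = 4.6e-06). The irradiated and control mixtures did not overlap for any of these 3 genes.

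ULBP1 fell in the mixtures from 15.1, 28.1 and 14.4 CPM to 8.50, 8.39 and 7.34 CPM (-1.28, SE 0.19, adjusted p = 6.8e-06). NIR replicate 2 stood apart at 28.1 CPM, and without it the log2 fold change was -0.89 and still called. ULBP3 fell slightly, from 31.9, 32.9 and 28.7 CPM to 26.1, 27.0 and 27.2 CPM (-0.24, SE 0.08, adjusted p = 0.0172), a call that was lost without mixed NIR replicate 2 or mixed IR replicate 1 and in a fit of all 18 libraries. NECTIN2 (-0.14), MICA (-0.20, adjusted p = 0.0539), ULBP2 (0.01) and CD274 (0.15, 95% interval -0.26 to 0.56) were not called. PDCD1LG2 was at 5 to 7 counts in each NIR mixture and 12 to 19 in each IR mixture, and its log2 fold change of 1.05 (SE 0.60, adjusted p = 0.155) was not called.

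Around these genes, CEACAM1 (2.93), NECTIN4 (2.47), LGALS9 (1.93) and VSIR (1.11) rose in the mixtures. Of 18 other B7, butyrophilin and checkpoint ligands, 8 were called higher, against 24.0% of all genes, and none lower, against 25.4%. IRF1 rose from 13.7 to 18.0 CPM (0.37), with CD274 uncalled as in the HCT116 monocultures.

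The last comparisons set the mixtures against HCT116 alone, which asks whether the presence of MCF10A went with another ligand level. As the medium of the mixtures is not given, the presence of MCF10A and the medium cannot be told apart here. Without irradiation, 0 of 9 genes were called by edgeR and 0 by DESeq2, with 1 of the 9, MICB, at an unadjusted p under 0.05. Over all 16455 genes 2.04% were called, 0.887% higher and 1.15% lower, and the higher share of those calls, 43.6%, was 63.8% in 1 fit of all 18 libraries. MICB was at 43.2, 43.0 and 35.6 CPM in HCT116 and at 50.5, 47.3 and 47.7 CPM in the mixtures, which did not overlap (log2 fold change 0.27, 95% interval 0.10 to 0.45, adjusted p = 0.106). With the replicate number as a block, 716 genes were called, MICB among them. Same-numbered HCT116 NIR and mixed NIR libraries had weakly correlated deviations from their group means (mean r 0.139, from 0.015 to 0.238). The sources used here do not say whether equal numbers mark paired cultures, so the MICB call depends on that choice. The other 8 differences lay between -0.21 and 0.33. NECTIN4 was lower in the mixtures (-1.19).

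After irradiation, ULBP1 and CD47 were called higher in the mixtures than in HCT116, 2 of 10 genes against 5.08% of 17137 genes, and none was called lower, against 3.48%, with 8.56% called in all. The higher share of the calls over all genes was 59.4%, and 80.5% in 1 fit of all 18 libraries. ULBP1 was at 4.90, 6.27 and 5.13 CPM in HCT116 IR and at 8.50, 8.39 and 7.34 CPM in the IR mixtures (0.56, SE 0.15, adjusted p = 0.0165). CD47 was at 71.7, 74.8 and 74.1 CPM and at 83.8, 82.2 and 86.6 CPM (0.18, SE 0.06, adjusted p = 0.0417). Neither gene's groups overlapped. The CD47 call was lost in each of the 6 fits that left out a library (adjusted p from 0.0714 to 0.176), and that of ULBP1 in 4 of the 6 (up to 0.0767) and in 1 fit of all 18 libraries (0.101). PDCD1LG2 was at 2 to 6 counts in each HCT116 library and 12 to 19 in each mixture (1.88, SE 0.69, adjusted p = 0.0969, and 0.00973 in 1 fit of all 18 libraries, where it was called). THBS1 (1.04) and TIMP3 (3.63), both abundant in MCF10A, were higher in the IR mixtures.

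Weighted by the estimated MCF10A share, the monocultures give an expected level for each gene in the mixtures. In the NIR mixtures the observed mean ran from 0.763 of the expected level for PDCD1LG2 to 1.25 times for ULBP1, where replicate 2 carried the excess. MICB was at 1.20 times its expected level in the NIR mixtures and at 1.11 times in the IR mixtures, and ULBP3 at 1.13 and 1.14 times. In the IR mixtures PVR (1.02), NECTIN2 (1.02) and MICA (1.04) lay close to the expected level. CD47 was at 84.2 ± 2.20 CPM against 73.8 expected, ULBP1 at 8.08 ± 0.641 against 5.37, and PDCD1LG2 at 0.413 ± 0.0981 against 0.261. MCF10A cells would contribute 0.157 CPM of that PDCD1LG2 level and 0.0004 CPM of the ULBP1 level, so the MCF10A part of the ULBP1 level is close to 0.

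**Figure D4:**
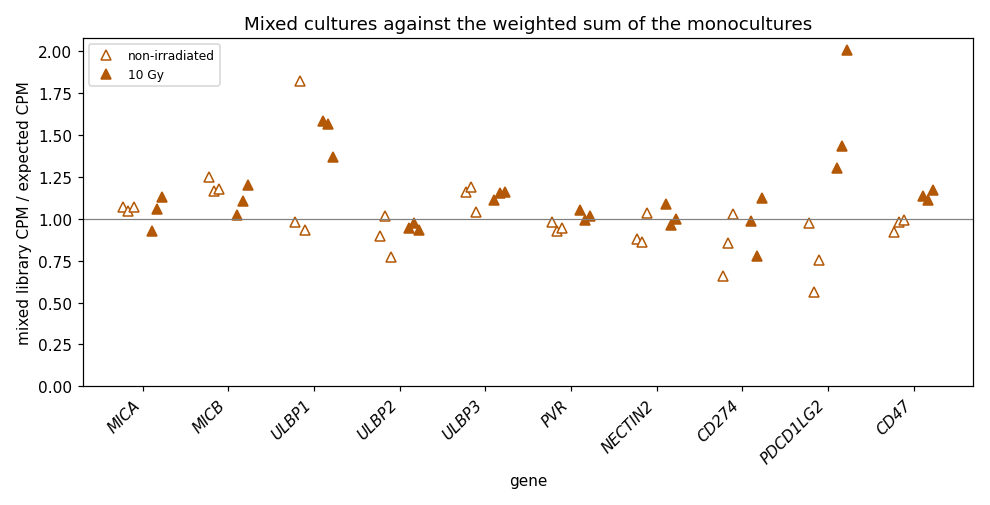
CPM of each ligand gene in the mixed libraries divided by the level expected from the monocultures at the estimated MCF10A RNA share (linear axis from 0; open triangles non-irradiated, filled triangles 10 Gy, 1 per library). In the irradiated mixtures all 3 libraries lie above 1 for MICB, ULBP1, ULBP3, CD47 and PDCD1LG2. In the non-irradiated ones all 3 lie above 1 for MICA, MICB and ULBP3, and ULBP1 is above 1 in replicate 2 alone.

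The response to irradiation itself was not called different between mixtures and HCT116 for any gene: 0 of 10 by edgeR and 0 by DESeq2, with CD47 the 1 gene at an unadjusted p under 0.05. Over 18072 genes 0.830% were called, 0.681% higher and 0.149% lower. The higher share of those calls was 82.0%, or 61.5% with DESeq2. With 1 library left out it was 68.7% at the lowest, without HCT116 NIR replicate 1. CD47 fell by 0.74 on the log2 scale in HCT116 and by 0.53 in the mixtures, a difference of 0.23 (95% interval 0.05 to 0.40, adjusted p = 0.237). For PVR the difference was 0.08 (95% interval -0.10 to 0.26), for MICB -0.13 (-0.38 to 0.12) and for ULBP1 0.23 (-0.34 to 0.79). TIMP3 had a higher response in the mixtures, by 2.06.

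Over the 18 libraries, the level of each ligand as log2(CPM + 0.5) was set beside that of 11302 other genes. The highest Pearson's r was 0.994 between ULBP1 and HDAC1, 0.995 between PDCD1LG2 and PLD5, 0.985 between ULBP3 and NGFR, and 0.980 between NECTIN2 and POLR2A. PVR went with CCDC9B (0.985) and CD47 with ANO6 (0.970). MICA had no neighbour above 0.784, the value for BCL7B. These values describe 18 libraries that share 2 lines and 1 treatment and carry no test.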

How the data were processed

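Poly(A) RNA of 18 cultures was sequenced as paired reads from stranded libraries, per the labels' protocols. The deposited unit is whole-number counts per gene symbol. The submitters' processing notes name fastp, STAR, featureCounts and GRCh38, with no versions, parameters or annotation. Of the count values from 1 to 10, 68.3% were even, so mates may have been counted one by one, and counts halved were tried. The 10 members and the gene lists were chosen with earlier results of these data known. Named genes were all 10 members and, per list and comparison, at most 4 called genes with at least a 2-fold change and a mean of 5 CPM, plus NECTIN1, NECTIN4, CD276, HLA-E, IRF1, CMTM6 and ADAM10, which could always be named. A few genes of the lists are counted but not reported by name here. CD14, CD226, TIGIT, CD96 and PVRIG belong to the immune marker list and were chosen for mention after their values were seen.

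Tests used edgeR 4.0.16 in R 4.3.3 (TMM, filterByExpr, quasi-likelihood, tested on simulated data) on the groups compared, with DESeq2 1.42.0 as an alternative. SE is the log2 fold change over the root of F, and 95% intervals use the t distribution with edgeR's total degrees of freedom. CPM is count × 1e+06 / library total, and totals of 25737818 to 40839835 counts a library limit the precision of the low genes. Nothing says that replicates came from separate thaws or passages, so p-values measure the spread between these samples. The smallest chi-square per gene between any replicates was 4.77, or 2.39 after halving the counts, which left no pair looking like 1 library deposited again. MCF10A RNA shares came from genes of at least 20 CPM in 1 line and under 1 CPM in the other. Upstream sequences are RefSeq's (GRCh38.p14), the lengths GENCODE 29's, and gene positions and start sites those of RefSeq. Alternatives were other scalings, no filter, counts halved, mitochondrial and abundant genes removed, 1 fit of all libraries, the replicate number as a block, and each library left out.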

Additional observations from a re-analysis of the deposited data

Results flagged for a closer look

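For each of the 8 genes below the interaction term of edgeR's quasi-likelihood test was called (irradiation response, HCT116 minus MCF10A, log2 scale, 12 libraries). CD47 differed by -0.887, PVR by 0.326 and ULBP2 by -0.966, and these 3 calls held in every fit that left out 1 library. MICB differed by -0.487, NECTIN2 by -0.469, CD274 by -0.812 and PDCD1LG2 by -2.162, and each of these calls was lost in at least 1 such fit. ULBP1 differed by -4.885 in the fit, where MCF10A had 3 counts in 6 libraries. PDCD1LG2 had 2 to 12 counts in each HCT116 library. Irradiation could not be tested for ULBP1 in MCF10A or for PDCD1LG2 in HCT116, so no difference in response is known for either gene.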

How the results depend on the processing

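Leaving out 1 library at a time changed the sign of uncalled differences near 0: MICA (-0.114 to 0.006), MICB (-0.05 to 0.1) and ULBP3 (-0.022 to 0.278) in MCF10A; ULBP2 (-0.149 to 0.005) and CD274 (-0.096 to 0.115) in HCT116; ULBP2 (-0.1 to 0.113) and CD274 (-0.009 to 0.303) in the mixtures. For mixtures against HCT116 NIR these were ULBP1 (-0.055 to 0.509), NECTIN2 (-0.192 to 0.031) and CD47 (-0.075 to 0.002), and after irradiation MICA (-0.076 to 0.118), ULBP2 (-0.134 to 0.019), PVR (-0.032 to 0.057), NECTIN2 (-0.05 to 0.081) and CD274 (-0.177 to 0.075). For the response, mixed minus HCT116, they were ULBP2 (-0.049 to 0.157), ULBP3 (-0.11 to 0.026), NECTIN2 (-0.046 to 0.175) and CD274 (-0.022 to 0.296). Members called ran from 5 to 9 in the line interaction and from 0 to 1 in irradiated mixtures against HCT116, and genes called from 145 to 313 (NIR mixtures against HCT116), 866 to 1312 (IR) and 64 to 197 (response, mixed minus HCT116).

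With upper-quartile scaling MICA in MCF10A was 0.032 and ULBP3 in the mixed-minus-HCT116 response 0.002; the latter was 0.016 with library totals and 0.007 in 1 fit of all 18 libraries. CD274 in HCT116 was -0.003 with library totals and -0.003 with no filter, and ULBP2 in the mixtures was -0.01 with no filter and -0.0003 without mitochondrial and abundant genes. Genes called in NIR mixtures against HCT116 were 575 with DESeq2, 671 with no filter and 768 in 1 fit of all libraries, and in the mixed-minus-HCT116 response 327 with DESeq2 and 336 with no filter, against 335 and 150. With no filter, 1 member was called in IR mixtures against HCT116. The MCF10A share was 0.3446% (NIR) and 1.0687% (IR) with genes of at least 50 CPM. The cause of these moves was not tested.

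The mean correlation of same-numbered deviations ran from -0.094 to 0.139 over 15 group pairs. The highest means were those of HCT116 with the mixtures of the same treatment. They were 0.139 (0.015 to 0.238) without irradiation and 0.132 (0.077 to 0.23) after it. With the replicate block, 716 genes (1 member, MICB) were called in NIR mixtures against HCT116 and 2220 in IR mixtures, against 335 and 1467 without it. Higher genes among those called moved by over 10 points in HCT116 against MCF10A (51.8% to 62.4% with upper-quartile scaling, 62.2% with library totals); the other moves of that size are given beside their comparisons. Depth limits PDCD1LG2 in HCT116 and ULBP1 in MCF10A.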

Other observations

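The receptors of these ligands left a low signal in the cell lines themselves. CD226, the DNAM-1 gene, was at 0.871 ± 0.225 CPM in MCF10A NIR and 2.30 ± 0.489 CPM in MCF10A IR (SD, n = 3), and at 2.58 ± 0.351 and 2.74 ± 1.00 CPM in HCT116. TIGIT had no count in the MCF10A libraries and was at 0.880 ± 0.226 CPM in HCT116 NIR, while CD3E had no count in either HCT116 group and PTPRC stayed at or under 0.217 CPM in every library. KLRK1, the NKG2D gene, was at 0.179 ± 0.260 CPM in MCF10A NIR and 0.466 ± 0.198 CPM in HCT116 NIR. In HCT116 IR, KLRK1 was at 0.202 ± 0.0737 CPM and TIGIT at 0.786 ± 0.263 CPM. CD96 was at 0.466 ± 0.315 CPM in HCT116 NIR and 2.24 ± 0.881 CPM in HCT116 IR. PVRIG was at 0.545 ± 0.257 and 1.60 ± 0.361 CPM in the same groups.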
